A study of Mus musculus with 2 samples.

Results

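Epoxide hydrolases and lipoxygenases make and break oxygenated fatty acids. The genes described here are 10 of the 32285 measured. They are 3 epoxide hydrolase genes (Ephx1, Ephx2 and Ephx3, without Ephx4) and 7 lipoxygenase genes (Alox12, Alox12b, Alox12e, Aloxe3, Alox5, Alox15 and Alox8). They were taken by symbol as a gene family, and the set was chosen by the ratio of preputial gland to skin of Ephx2 in sebocytes, which was among the highest of all genes. That ratio is therefore given as a description and is not a finding. Single cells were profiled from the back skin and from the preputial gland (PG), a paired gland beside the penis of rodents that is made of enlarged sebaceous acini and ducts. Both tissues came from male wild type C57BL/6 mice aged 52 weeks, and the cells of 3 mice were pooled into 1 library for each tissue. The labels name no deleted gene and no treatment for either group. Since no spread between animals was measured, no test between tissues was possible, and every interval is an exact 95% interval for counting error alone.

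A lipoxygenase adds oxygen to a polyunsaturated fatty acid and gives a hydroperoxide, and some lipoxygenases then turn hydroperoxides into epoxyalcohols. An epoxide hydrolase opens an epoxide ring with water and gives a diol. In the epidermis this chemistry is best known for the skin barrier, where the product of Alox12b oxidises the linoleate of ceramides and that of Aloxe3 converts the hydroperoxide, so that ceramides can be bound to the cornified envelope; loss of either gene causes ichthyosis in people. In leukocytes, Alox5 starts the synthesis of leukotrienes. Sebocytes are lipid-producing cells that fill with droplets and then burst to release sebum.

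After filtering, 8899 skin cells with 27407186 unique molecular identifiers (UMIs, the counted RNA molecules) and 4699 PG cells with 15270076 UMIs remained, and the median cell held 2386 and 2729 UMIs. The tables of skin and PG listed 6794880 and 737280 possible barcodes, so the libraries did not share 1 barcode list, and library and tissue cannot be told apart. None of the kept cells shared a barcode between libraries (0 shared). Cells were clustered in each tissue and classes were named by marker genes. The sebocyte-like cells of skin (sSEB) were 45 cells in 2 clusters, with 8 and 11 of 13 sebocyte markers raised, and those of PG (pSEB) were 695 cells in 11 clusters. Clusters without a clear class held 19.6% of skin and 17.2% of PG cells. Levels are UMIs of a gene scaled to the total of the class, in the usual unit of CPM, and were compared across classes within a gene.

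Over whole libraries, the genes split into those with more and those with fewer transcripts in PG. These ratios also reflect which cells each library held. Sebocyte-like cells were 14.8% of PG and 0.506% of skin cells. No PG cluster was named suprabasal keratinocyte, hair matrix or inner root sheath. Ephx2 was at 5.58 CPM in skin and 152 CPM in PG, a log2 ratio of PG to skin of 4.77 (4.53 to 5.02). Ephx1 was at 21.2 and 73.0 CPM (1.79, 1.64 to 1.93), and Alox12e at 82.5 and 223 CPM (1.43, 1.36 to 1.51). These 3 genes were higher in PG by more than 2-fold. The barrier pair was higher in skin. Alox12b had 187 UMIs in skin and 0 in PG, a log2 ratio of at most -5.12 when PG is set at 3 UMIs, the limit a count of 0 allows. Aloxe3 was at 8.36 and 0.720 CPM (-3.54, -4.56 to -2.67). Among the others, Alox8 was at 4.93 and 0.327 CPM (-3.91, -5.56 to -2.65) and Alox5 at 1.46 and 0.327 CPM (-2.16, -3.85 to -0.81), with 5 PG UMIs for each of them. Ephx3 (12.1 and 6.09 CPM) and Alox12 (9.34 and 5.04 CPM) were higher in skin by less than 2-fold. Alox15 had 1 UMI in each library and is not described further by class.

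On GRCm38, the mouse build that is also called mm10, 6 of the 7 lipoxygenase genes lie on chromosome 11 within 1226136 bases. In order they are Aloxe3 (chr11:69125896-69149115), Alox12b (chr11:69156989-69169792), Alox8 (chr11:69183932-69197843), Alox12 (chr11:70241457-70255353), Alox12e (chr11:70315610-70322628) and Alox15 (chr11:70344152-70352031). Aloxe3 and Alox12b are 7873 bases apart on the plus strand, and the other 4 genes of the group are on the minus strand. The neighbours Alox12b and Alox8 are 14139 bases apart but, as described below, had their highest levels in different classes. Alox5 lies at chr6:116410077-116461178, Ephx1 at chr1:180976210-181020904, Ephx2 at chr14:66084374-66124500 and Ephx3 at chr17:32183770-32189549, all on the minus strand. Ephx1 overlaps the annotated gene Gm36961, so its reads may not be separable from those of that gene.

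**Figure D1:**
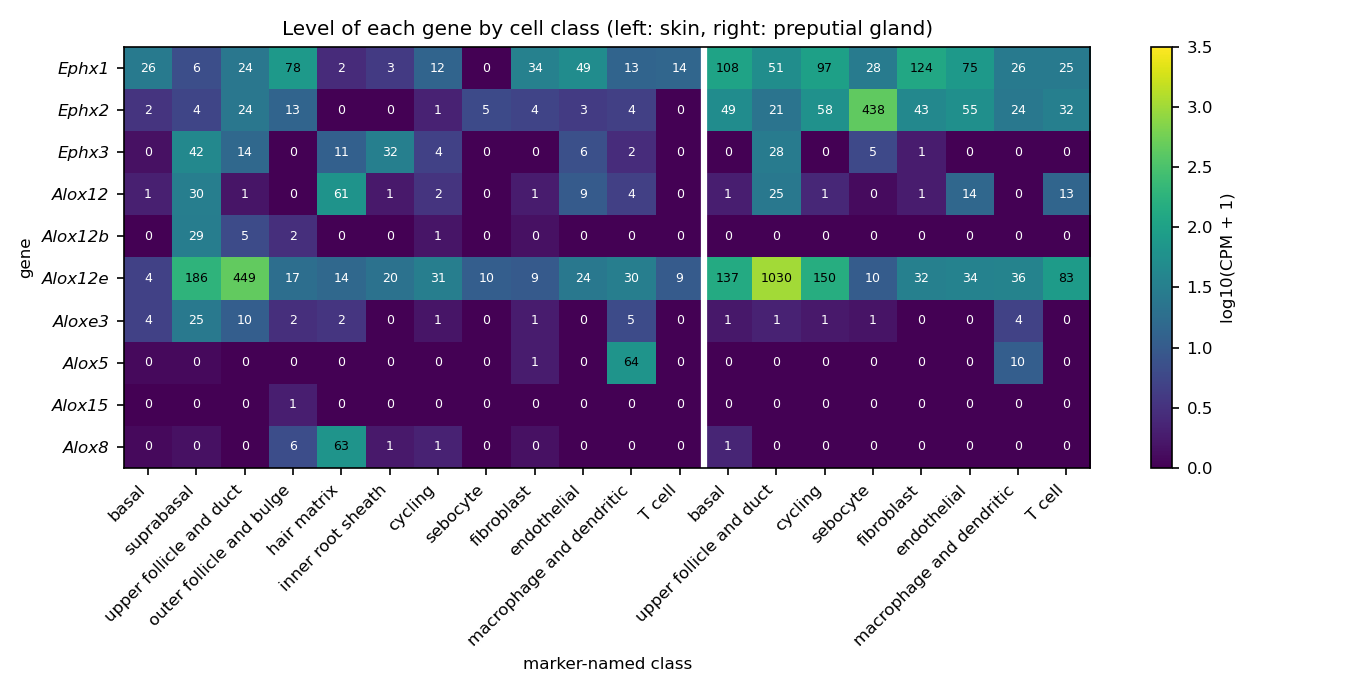
Heatmap of the level of each gene by named cell class of skin and PG, coloured on a log scale of CPM, with the rounded CPM in each cell. Contractile, melanocyte and skeletal muscle classes are not shown. Ephx2 was highest in PG sebocyte-like cells (438 CPM), Alox12e in PG upper follicle and duct keratinocytes (1030.5 CPM), and Alox12b was detected in skin only.

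Ephx2 encodes soluble epoxide hydrolase, which opens the epoxides of arachidonic and linoleic acid. In PG it was at 438 CPM in pSEB (417 to 459.6, 1660 UMIs), 57.5 CPM in cycling cells, 54.7 CPM in endothelial cells (8 UMIs), 48.8 CPM in basal keratinocytes, 42.6 CPM in fibroblasts, 31.8 CPM in T cells (5 UMIs), 23.9 CPM in macrophages and dendritic cells (12 UMIs) and 21.4 CPM in upper follicle and duct keratinocytes. Contractile cells had 2 UMIs. pSEB held 71.4% of the Ephx2 UMIs of all PG cells. The interval of pSEB lay far above all others. Neighbours in the order below pSEB had overlapping intervals and were not separable from each other. A UMI of Ephx2 was found in 70.8% of pSEB, and in 30.2% (26.8 to 33.8) when every cell was thinned to 1000 UMIs. In thinned macrophages and dendritic cells the share was 1.89% (0.516 to 4.76). The median depth was 5294 UMIs in pSEB and 2017 UMIs in macrophages and dendritic cells. RNA outside cells, read from PG barcodes with few UMIs, held Ephx2 at 273 CPM, above the 152 CPM of the cells. From that, free RNA was estimated to give 28.9 CPM in PG fibroblasts, 28.3 CPM in T cells, 28.0 CPM in endothelial cells, 22.0 CPM in macrophages and dendritic cells and 16.9 CPM in duct cells. The levels in T cells, macrophages and dendritic cells and duct cells were close to those values, so they are not read as expression.

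In skin, Ephx2 was highest in upper follicle and duct keratinocytes, with 23.5 CPM (40 UMIs, 16.8 to 32.0), followed by contractile cells with 13.6 CPM (2 UMIs) and outer follicle and bulge keratinocytes with 12.6 CPM (13 UMIs, 6.71 to 21.6). Suprabasal and basal keratinocytes were at 4.36 and 2.31 CPM, and fibroblasts at 4.22 CPM. Hair matrix cells had 0 UMIs of 1206902, which allows up to 2.49 CPM, and inner root sheath cells had 0 of 1354950. In sSEB, 1 UMI of Ephx2 was counted among 198302, or 5.04 CPM (0.128 to 28.1). The upper bound lies below every pSEB cluster with at least 20 cells. Skin clusters without a class held 30.7% of the skin UMIs of Ephx2.

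The ratio of pSEB to sSEB for Ephx2 was 6.44 on the log2 scale (3.96 to 11.75). By that ratio it stood at place 6 among 3142 genes with at least 50 CPM in either class, with the gene above at 6.48 and the gene below at 6.27. These values chose the gene. Of the 10 genes, 4 had at least 10 UMIs in pSEB or sSEB and 1 passed 2-fold, against 30.5% of all genes tested; the count was 3 with at least 1000 genes and 2000 UMIs and with cells classed one by one by their markers. Alox12e was at 9.50 CPM in pSEB and 10.1 CPM in sSEB (-0.09, -2.04 to 3.01). Free RNA of PG held Alox12e at 141 CPM, and the estimated free RNA share of pSEB was 5.41%. The pSEB level is therefore not read as expression by pSEB alone. Ephx1 had 105 UMIs in pSEB (27.7 CPM) and 0 in sSEB, which allows up to 15.1 CPM, so the ratio was at least 0.87. Ephx3 had 19 UMIs in pSEB and 0 in sSEB, and at this depth no difference was detectable. When likely doublets and the cells with the most UMIs were left out, 44 of the 45 sSEB stayed but no skin cluster was sebocyte-like, so that no ratio could be given.

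Within PG, which is 1 library, the levels were compared between basal keratinocytes and pSEB. No lineage was traced, and the study did not compute a trajectory for its PG sebocytes. Of the 10 genes, 4 could be compared between pSEB and basal keratinocytes, and all 4 passed 2-fold (2 higher, 2 lower), against 28.7% of all genes. Ephx2 was chosen through its pSEB level, and Ephx3 reached 10 UMIs only in pSEB, so this count is a description. Ephx2 was higher in pSEB by 3.17 on the log2 scale (2.92 to 3.42). This ratio was 1.78 at 5% mitochondrial UMIs, 2.29 with at least 1000 genes and 2000 UMIs and 2.34 without likely doublets. Ephx1, which encodes the microsomal epoxide hydrolase that detoxifies foreign epoxides, was lower (27.7 against 107.5 CPM; -1.96, -2.29 to -1.63). Ephx3 had 19 UMIs in pSEB and 0 in basal keratinocytes, at least 2.33 higher. Alox12e was lower in pSEB (-3.85, -4.38 to -3.36), but this ratio turned to 0.39 when cells were limited to 5% mitochondrial UMIs, and the count of genes past 2-fold then fell to 2.

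Over the basal and pSEB clusters of PG with at least 20 cells, Ephx2 was lowest in basal and highest in pSEB clusters. Ephx1 was the reverse, although neighbouring clusters did not follow this order at every step. In the basal clusters Ephx2 was at 19.2 CPM (479 cells) and 69.7 CPM (686 cells), and Ephx1 at 88.9 and 121 CPM. In 3 clusters of 492, 130 and 138 cells, Ephx2 was at 139.5, 136 and 221 CPM and Ephx1 at 117, 36.9 and 61.1 CPM. The cluster of 492 cells had no class, and that of 138 cells had 3 raised sebocyte markers. The cluster of 130 cells had 5 raised sebocyte markers but no class, since its leading genes held a marker of another class. It was therefore not counted in pSEB. All 3 clusters lay above the basal clusters for Ephx2. In the next pSEB clusters, of 51, 124 and 130 cells with 6 or 7 raised markers, Ephx2 was at 217, 237 and 283 CPM and Ephx1 at 21.7, 39.3 and 20.4 CPM. Among clusters of at least 20 cells, those with the most UMIs per cell were 4 pSEB clusters of 55, 20, 87 and 57 cells. There Ephx2 was at 451, 590.4, 712 and 927 CPM, and Ephx1 at 22.7, 24.3, 16.9 and 10.2 CPM. The cluster of 57 cells had the highest Ephx2 level among clusters with at least 20 cells and the lowest level of Ephx1. Over the 8 pSEB clusters with at least 20 cells, the Spearman correlation with the summed sebocyte markers was 0.952 for Ephx2 and -0.738 for Ephx1, and the Pearson correlation on the log2 scale was 0.896 and -0.910. These clusters share 1 library and differ in depth, so the correlations are a description. The 10 genes were not used for the clustering. Ephx3 had 9 UMIs (22.9 CPM) in the cluster of 57 cells and 9 UMIs (80.5 CPM) in a cluster of 12 cells. The latter expressed Awat2 and Elovl3, genes of wax ester and very long-chain fatty acid synthesis.

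**Figure D2:**
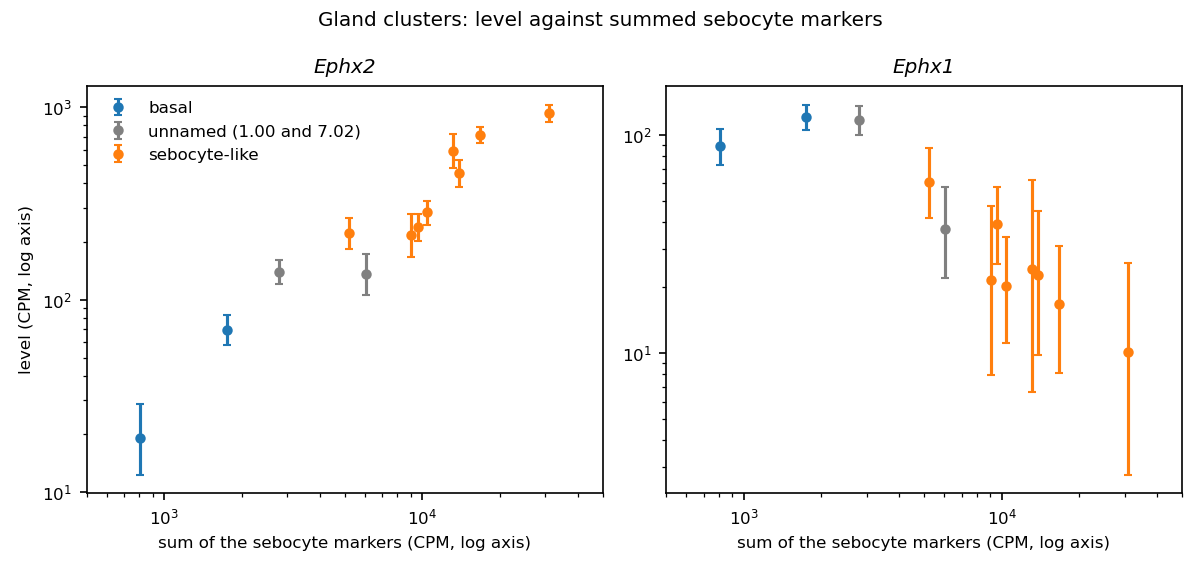
Ephx2 and Ephx1 levels (CPM, log axis, exact 95% counting intervals) in basal and sebocyte-like clusters of PG and in clusters of 492 and 130 cells without a class. Ephx2 went from 19.2 CPM in a basal cluster to 927 CPM in the pSEB cluster of 57 cells, while Ephx1 went from 88.9 to 10.2 CPM.

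Some genes that act beside the epoxide hydrolases were also higher in pSEB than in PG basal keratinocytes. Of 6 epoxygenases and other epoxide genes, 2 could be compared between these classes. Both were higher in pSEB, against 28.7% of all genes past 2-fold. Cyp2b19, a keratinocyte arachidonate epoxygenase, was at 69.7 CPM in pSEB and 1.33 CPM in basal cells (5.71, 4.34 to 7.60), and Cyp2j6 was 1.21 higher (0.60 to 1.85). Their median ratio was 3.46, against -0.12 over all genes. Of 19 genes for the release and oxygenation of fatty acids, 6 could be compared, 2 were higher and 1 was lower, against 28.7% of all genes past 2-fold, with a median of 0.24.

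The genes whose levels over 20 named classes of both tissues were most like those of Ephx2 were Cat (Pearson r of log2(CPM + 1) 0.920), Aldh6a1 (0.915), Cidea (0.895), Plin2 (0.895) and Olah (0.883), out of 7024 genes. Cat encodes catalase, Plin2 coats lipid droplets, and Olah releases fatty acids from fatty acid synthase. For Ephx1 they were Cyp4b1 (0.905), Gstm2 (0.894), Slc29a1 (0.881), Rras (0.874) and Tnfrsf1a (0.866). Gstm2 encodes a glutathione transferase and Cyp4b1 a cytochrome P450. Classes of a tissue share a library, and Cidea and Plin2 were also used to name sebocytes.

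Ephx1 was higher in PG than in skin in the other classes. In basal keratinocytes it was at 107.5 CPM in PG (324 UMIs) and 26.0 CPM in skin (124 UMIs), a log2 ratio of 2.05 (1.74 to 2.36). In fibroblasts it was at 124 and 33.7 CPM (1.88, 1.48 to 2.30), and in upper follicle and duct keratinocytes at 51.1 and 23.5 CPM (1.12, 0.60 to 1.67). Macrophages and dendritic cells had 13 and 7 UMIs, and the interval of their ratio held 0 (1.05, -0.39 to 2.61). The highest skin level of Ephx1 among the named keratinocyte classes was 77.6 CPM, in outer follicle and bulge cells. Ephx1 was thus more than 2-fold higher in basal keratinocytes, fibroblasts and duct keratinocytes of PG, while in macrophages and dendritic cells the ratio lay between 0.71 and 1.21 under the alternatives. In skin basal and suprabasal keratinocytes it was at 26.0 and 5.88 CPM, and in hair matrix cells at 1.66 CPM, 2 UMIs.

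Over the same 4 classes, Ephx2 was higher in PG in 3. The log2 ratio was 4.40 in basal keratinocytes (3.52 to 5.43), 3.34 in fibroblasts (2.34 to 4.49), 2.74 in macrophages and dendritic cells (0.57 to 5.94) and -0.14 in upper follicle and duct keratinocytes (-0.76 to 0.49). After the free RNA was subtracted, the ratio of macrophages and dendritic cells turned to -0.84 that of fibroblasts fell to 1.87, and that of duct keratinocytes fell to -2.46. In PG basal keratinocytes the 48.8 CPM were above the 12.3 CPM estimated for free RNA.

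By class, the counts of genes past 2-fold between PG and skin were as follows. In basal keratinocytes 4 of the 10 genes could be compared and 4 passed (3 higher in PG, 1 lower), against 38.2% of all genes. In upper follicle and duct keratinocytes 6 could be compared and 4 passed (3 higher, 1 lower), against 36.8%. In fibroblasts 3 could be compared and 3 were higher, against 22.8%, but the call of Alox12e was lost at 5% mitochondrial UMIs, without likely doublets, at a finer clustering and with another seed. In macrophages and dendritic cells 4 could be compared and 3 passed (2 higher, 1 lower), against 33.1%. The 2 higher genes were Ephx1, with a ratio interval of -0.39 to 2.61, and Ephx2, whose PG level was close to that estimated for free RNA. Without likely doublets or at a finer clustering 1 passed. The lower genes were Aloxe3 in basal cells and in duct cells and Alox5 in macrophages and dendritic cells. Some of the genes counted reached 10 UMIs only in the tissue where they were higher, so these counts are a description.

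**Figure D3:**
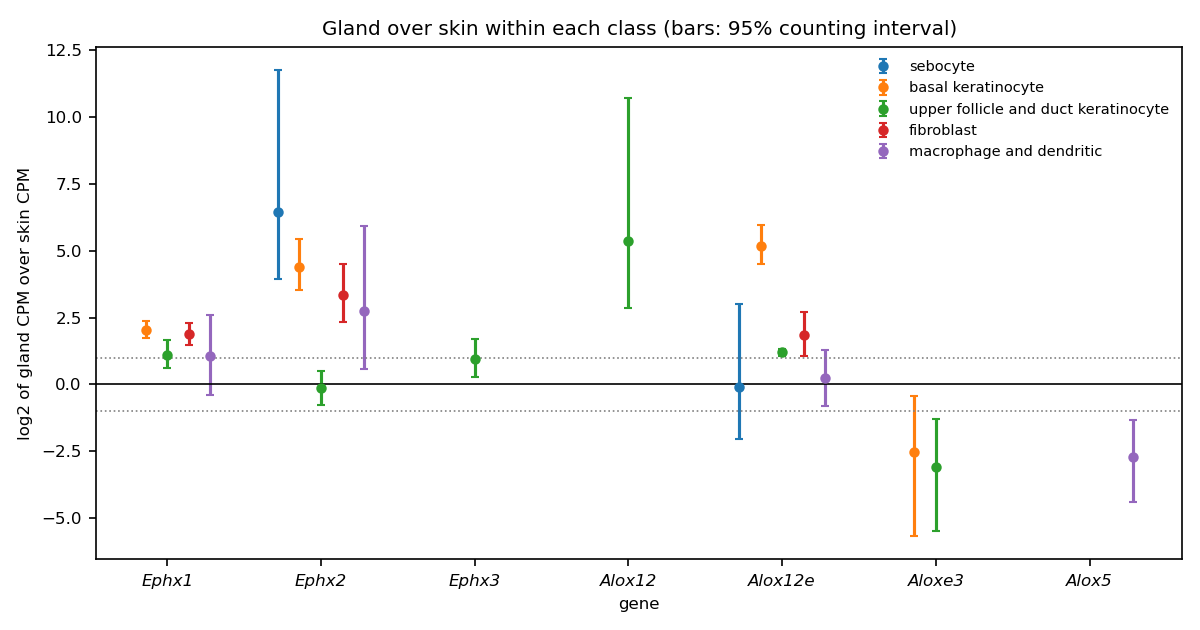
Log2 ratio of PG to skin for genes that could be compared in 5 matched classes, with exact 95% counting intervals. Ratios that were only a bound against a count of 0, as for Ephx1 and Ephx3 in sebocyte-like cells, are not shown. Ephx1 and Ephx2 were above 0 in basal keratinocytes and fibroblasts, Aloxe3 was below 0 in both keratinocyte classes shown for it, and Alox5 was below 0 in macrophages and dendritic cells.

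Alox12e encodes an epidermal lipoxygenase that makes 12-hydroperoxides of arachidonic acid and of other fatty acid esters. Upper follicle and duct keratinocytes carried it in both tissues. It was at 1030.5 CPM in PG (991 to 1071, 2604 UMIs) and 449 CPM in skin (418 to 482, 764 UMIs), a log2 ratio of 1.20 (1.08 to 1.32). In cells thinned to 1000 UMIs, 50.9% of PG and 25.4% of skin cells of the class had a UMI, against 6.06% of PG T cells and 0 of the skin T cells (interval up to 3.52%), and without thinning the shares were 76.6% and 43.1%. The median depths were 3620 UMIs in PG and 2645 UMIs in skin duct cells, and 1678 and 1365 UMIs in T cells. PG duct cells held 76.5% of the PG transcripts of Alox12e. Both PG duct clusters carried it, at 827 CPM (350 cells) and 1193 CPM (283 cells), and the highest skin cluster was at 645 CPM (350 cells, led by Krt79 and Cst6).

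Within PG, Alox12e was higher in duct cells than in basal keratinocytes by 2.91 on the log2 scale (2.76 to 3.06), and by 3.19 to 6.99 under the alternatives that moved it, with the highest at 5% mitochondrial UMIs. The basal level of 137 CPM was uneven, since the cluster of 479 cells was at 311 CPM and that of 686 cells at 14.2 CPM. The same unevenness touched the PG to skin ratio of basal keratinocytes, 137 against 3.78 CPM (5.18, 4.50 to 5.95), which turned to -0.19 when cells were limited to 5% mitochondrial UMIs. In fibroblasts the ratio was 1.86 (1.05 to 2.71), but 24 of the 37 PG UMIs came from a cluster of 11 cells. At a finer clustering the ratio turned to -0.39. Free RNA was estimated to give 2.52 of the 3.78 CPM of skin basal cells and 7.865 of the 8.854 CPM of skin fibroblasts. The ratio in duct cells lay between 1.36 and 1.55 under the settings that moved it, and the direction was the same in each.

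In both tissues duct cells carried more of Alox12e and Ephx3 than basal keratinocytes. Ephx3, an epoxide hydrolase of the epidermis, was at 27.7 CPM in PG duct cells (70 UMIs) and at 0 UMIs in PG basal cells, at least 4.80 higher. In skin it was at 14.1 CPM (24 UMIs) and 0.420 CPM (2 UMIs; 5.07, 3.06 to 8.20). The PG to skin ratio in duct cells was 0.97 (0.29 to 1.71), below 2-fold. Alox12, the platelet-type lipoxygenase that is also found in epidermis, was at 24.5 CPM in PG duct cells (62 UMIs), 0.995 CPM in PG basal cells (3 UMIs; 4.62, 3.01 to 6.94) and 0.588 CPM in skin duct cells (1 UMI). The tissues differed for Alox12 in this class by 5.38 (2.85 to 10.71), which fell to 1.64 without likely doublets. The PG duct cluster of 283 cells was higher than that of 350 cells for Ephx3 (40.6 and 11.6 CPM) and for Alox12 (31.3 and 16.0 CPM).

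From basal to duct cells, 5 of the 10 genes could be compared in PG and all 5 passed 2-fold (3 higher, 2 lower), against 27.5% of all genes. Ephx3 and Alox12 reached 10 UMIs only in PG duct cells, so this count is a description. The lower ones were Ephx1 (-1.07, -1.38 to -0.78) and Ephx2 (-1.19, -1.67 to -0.73; -3.04 with free RNA subtracted). In skin 5 could be compared and 4 were higher, against 23.5%, and Ephx3 reached 10 UMIs only in duct cells. Here Ephx2 was higher (3.35, 2.36 to 4.46), as was Aloxe3 (1.40, 0.36 to 2.44), with 17 and 18 UMIs, while Ephx1 was at 23.5 and 26.0 CPM (-0.15, -0.70 to 0.38). Alox12e was higher by 6.89 (6.22 to 7.66). Of 12 genes for the synthesis and transport of epidermal ceramides, 8 could be compared in PG. All 8 were higher in duct cells, against 27.5% of all genes past 2-fold, with a median of 3.05 against -0.28 over all genes. They included Elovl4, which elongates very long-chain fatty acids (172 against 17.9 CPM; 3.26, 2.85 to 3.70), and Abhd5 (1.38, 0.97 to 1.79). In skin 6 of 10 were higher, against 23.5% of all genes past 2-fold, with a median of 2.27 against -0.08. In PG, Cers3, Pnpla1, Abca12, Tgm1 and Nipal4 reached 10 UMIs only in duct cells, as did Cyp4f39, Pnpla1 and Tgm1 in skin. These counts and medians are therefore a description.

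Alox12b was not detected in PG, with 0 UMIs in the 2526964 UMIs of duct cells, which allows up to 1.19 CPM, and 0 in every other PG class. Skin duct cells had 9 UMIs of Alox12b (5.29 CPM), under 10, so the gene could not be compared in duct cells. Aloxe3 had 3 UMIs in PG duct cells and 2 in PG basal cells. In the PG to skin comparison of duct cells, Aloxe3 had 3 and 17 UMIs (-3.07, -5.49 to -1.28), and in basal cells at 0.664 and 3.78 CPM (-2.51, -5.66 to -0.45). Of the ceramide genes, 10 could be compared between PG and skin duct cells. In PG 1 was higher and 3 were lower, a share near the 36.8% of all genes past 2-fold. The median was -0.14, against -0.06 over all genes. The higher one was Slc27a4 with 117 and 19 UMIs (2.05, 1.34 to 2.83). The lower ones were Cyp4f39 with 6 and 20 UMIs (-2.31, -3.91 to -0.94), Abca12 with 31 and 127 UMIs (-2.61, -3.22 to -2.03) and Ugcg with 2 and 48 UMIs (-5.16, -8.24 to -3.23). Cyp4f39 and Ugcg reached 10 UMIs only in skin. Sdr9c7 and Lipn had 0 UMIs in PG duct cells and under 10 in skin duct cells, so they could not be compared.

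In skin the barrier genes were raised in suprabasal keratinocytes. Alox12b, which encodes the lipoxygenase of the barrier pathway, had 135 UMIs in suprabasal cells (29.4 CPM) and 0 in basal cells, at least 5.55 higher. Aloxe3, whose product isomerises the hydroperoxide, was at 24.8 CPM (114 UMIs) and 3.78 CPM (18 UMIs; 2.72, 1.99 to 3.52). Ephx3 was at 41.6 CPM (191 UMIs) and 0.420 CPM (2 UMIs; 6.63, 4.76 to 9.69). Alox12 was at 30.1 CPM (138 UMIs) and 1.05 CPM (5 UMIs; 4.84, 3.58 to 6.49), and Alox12e at 187 and 3.78 CPM (5.63, 4.96 to 6.39). These 5 genes were higher in suprabasal cells, and Ephx1 was lower (-2.15, -2.80 to -1.54). In all, 7 of the 10 genes could be compared and 6 passed 2-fold, against 27.1% of all genes. The median ratio of those compared was 4.84, against -0.12 over all genes. Alox12b, Ephx3 and Alox12 reached 10 UMIs only in suprabasal cells, so the count and the median are a description. Ephx2 did not pass (0.92, -0.21 to 2.12).

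Suprabasal cells held 72.2% of the skin UMIs of Alox12b, 57.5% of those of Ephx3, 53.9% of those of Alox12, 49.8% of those of Aloxe3 and 37.9% of those of Alox12e. Most of the rest of Aloxe3 (29.3%) and Alox12b (20.3%) lay in clusters without a class.

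The suprabasal clusters separated the 5 genes further. Ordered by the summed level of Lor, Flg, Flg2, Hrnr and Ivl, genes of the cornified layer, the 4 clusters had 594, 242, 254 and 79 cells. Alox12b was at 0, 2.38, 21.1 and 160.2 CPM in that order, and Aloxe3 at 3.21, 8.71, 17.5 and 116 CPM. Both were highest in the last cluster, where the cornified layer genes summed to 42270 CPM. Ephx3 also was highest there, with 18.6, 30.1, 64.3 and 79.4 CPM. Alox12e was at 57.7, 168, 467 and 67.6 CPM, and Alox12 at 12.2, 26.9, 74.4 and 5.88 CPM. Those 2 genes were highest in the cluster of 254 cells and lower in the last. Ephx1 was at 8.98, 7.13, 1.84 and 2.94 CPM, well below its basal level in each.

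**Figure D4:**
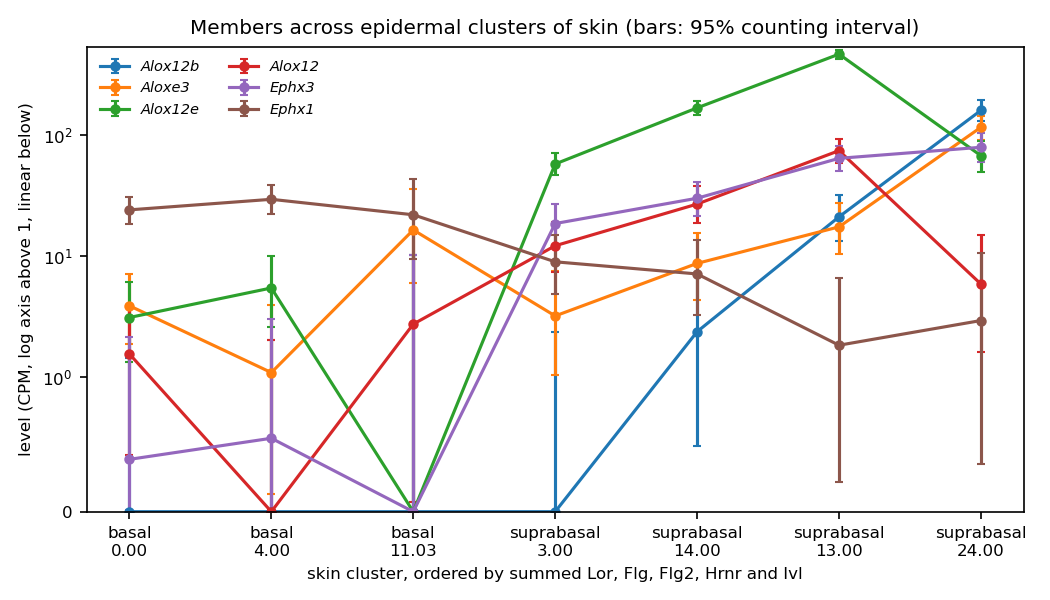
Levels (CPM, log axis, exact 95% counting intervals) of the epidermal genes in skin basal keratinocytes and in 4 suprabasal clusters ordered by their cornified layer genes. Alox12b, Aloxe3 and Ephx3 were highest in the last cluster (160.2, 116 and 79.4 CPM), and Alox12e and Alox12 in the one before it (467 and 74.4 CPM).

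Since Ephx3, Alox12, Alox12b and Alox12e were together at least 2-fold higher in suprabasal cells, the DNA before their starts is shown. RefSeq gave promoters for 7 of the 10 genes, and each line is the 150 bases from 250 to 101 bases before the annotated start, 5′ to 3′ on the strand of the gene, on GRCm38.p6 (Ephx3 chr17:32189571-32189720, minus strand; Alox12 chr11:70255471-70255620, minus; Alox12b chr11:69156822-69156971, plus; Alox12e chr11:70322631-70322780, minus). Capitals mark a motif on either strand.
Ephx3: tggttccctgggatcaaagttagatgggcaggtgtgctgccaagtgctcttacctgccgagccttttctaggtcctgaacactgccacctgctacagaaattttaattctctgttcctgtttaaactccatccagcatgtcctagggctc
Alox12: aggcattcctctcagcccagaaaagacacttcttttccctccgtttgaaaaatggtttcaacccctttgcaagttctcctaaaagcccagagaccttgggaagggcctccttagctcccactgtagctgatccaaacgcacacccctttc
Alox12b: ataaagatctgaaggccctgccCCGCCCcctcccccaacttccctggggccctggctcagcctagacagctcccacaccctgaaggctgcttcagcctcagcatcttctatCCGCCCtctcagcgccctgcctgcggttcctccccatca
Alox12e: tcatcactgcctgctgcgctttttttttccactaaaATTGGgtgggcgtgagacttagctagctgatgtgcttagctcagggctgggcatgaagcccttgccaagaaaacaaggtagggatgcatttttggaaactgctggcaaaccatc
Of 32851 promoter windows of this length, 7.29% held the TATA box letters TATAAA on either strand. The letters of the CCAAT box were in 20% of the windows, and those of the GC box, GGGCGG, in 16.7%. An AP-1 motif, TGANTCA, was in 4% of the windows. The nuclear receptor element AGGTCA was in 8.47%, and the E-box CACGTG in 2.89%. All were searched on both strands, and the matches marked here do not overlap. The window of Alox12b held GGGCGG at 228 and 139 bases before the start, and that of Alox12e held CCAAT at 214 bases before the start, all on the reverse strand. None of these letters was in the windows of Ephx3 and Alox12, and no motif was shared by the 4 windows. A match is a description of letters and not of a bound factor.

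The ceramide genes were raised in the same suprabasal cells. All 12 could be compared and all 12 were higher than in basal keratinocytes, against 27.1% of all genes past 2-fold. Their median was 3.78, against -0.12 over all genes. Of them, Sdr9c7, Lipn, Cyp4f39, Pnpla1 and Tgm1 reached 10 UMIs only in suprabasal cells, so this count and median are a description. Elovl4 was at 346 CPM, with 1586 against 20 UMIs (6.36, 5.73 to 7.08), Abca12, a lipid transporter of lamellar granules, at 126 and 7.55 CPM (4.05, 3.57 to 4.58), Abhd5, a co-activator of ceramide acylation, at 110.5 and 35.0 CPM (1.66, 1.40 to 1.92) and Ugcg, a glucosylceramide synthase, at 51.9 CPM (2.12, 1.69 to 2.56). Of the release and oxygenation genes, 13 could be compared, 5 were higher and 2 lower, against 27.1% of all genes past 2-fold. Their median was 0.36. Ptgs1 (3.13, 2.87 to 3.40) and the phospholipase gene Pla2g2f (3.13, 2.84 to 3.43) were higher, and Ptgs2 was lower (-3.05, -3.57 to -2.57). Ptgs1 and Ptgs2 encode the cyclooxygenases that start prostaglandin synthesis. Of 3 leukotriene receptor genes compared, Cysltr1 was lower (-3.58, -4.48 to -2.80).

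Between the tissues, most release and oxygenation genes that could be compared were lower in PG keratinocytes. In basal cells 12 could be compared, 1 was higher and 8 were lower, against 38.2% of all genes past 2-fold, with a median of -3.46 against 0.12 over all genes. Ptgs2 was at 0.332 and 70.5 CPM (-7.73, -13.04 to -5.24) and Ptges, a prostaglandin E synthase, at 1.66 and 65.7 CPM (-5.31, -6.94 to -4.07). The basal classes differed in makeup. Skin basal cells held a cluster of 518 cells led by Atf3, Arc, Ccn1, Nr4a1 and Fos. PG clusters of 59 and 58 cells, with Ccn1 and Nr4a1 or with Arc and Jun among their leading genes, had no class. PG cells without a class held 139 Ptgs2 UMIs (54.9 CPM). Whether class makeup accounts for the Ptgs2 ratio was not tested. In duct cells the counts were again 1 higher and 8 lower of 12, against 36.8% of all genes past 2-fold. The median was -3.12 against -0.06, and Ptgs1 was at 1.98 and 86.5 CPM (-5.45, -7.09 to -4.19). In basal cells and in duct cells alike, the 8 lower genes reached 10 UMIs only in skin. The counts and medians of both classes are therefore a description. In basal cells all 3 leukotriene receptor genes compared were lower in PG, with Cysltr1 at 0.664 and 36.5 CPM (-5.78, -8.84 to -3.91).

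Hair matrix cells of skin, which build the hair shaft, were the class with the most Alox8 and much Alox12. Alox8 encodes a mouse lipoxygenase that adds oxygen to arachidonic acid. It had 76 UMIs in hair matrix cells (63.0 CPM, 49.6 to 78.8) and 1 in basal keratinocytes (0.210 CPM; 8.23, 5.71 to 13.55), and hair matrix cells held 56.3% of its skin UMIs. A further 32.6% lay in clusters without a class. The highest Alox8 level was 291 CPM (31 UMIs) in a skin cluster of 32 cells without a class that was led by Tchhl1, Sptssb and Sct, followed by 124 CPM in the hair matrix cluster of 82 cells led by Krt31 and other hair keratin genes. Alox12 was at 61.3 CPM in hair matrix cells (74 UMIs) and 1.05 CPM in basal keratinocytes (5.87, 4.58 to 7.53). Ephx3 was at 10.8 and 0.420 CPM (4.68, 2.54 to 7.87).

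Of the 10 genes, 7 could be compared between hair matrix and basal cells and 5 passed 2-fold (4 higher, 1 lower), against 39.0% of all genes. The lower one was Ephx1 (-3.97, -7.03 to -2.09). Ephx3, Alox12 and Alox8 reached 10 UMIs only in hair matrix cells, so this count is a description. Alox12e was 1.90 higher on 17 and 18 UMIs, but the ratio turned to -1.03 without likely doublets and to -0.16 when cells were classed one by one by their markers. Aloxe3 had 3 UMIs (-0.60, -3.01 to 1.17). In the inner root sheath, the layer around the growing hair, Ephx3 was at 31.7 CPM (43 UMIs, 23.0 to 42.8), while Alox12 and Alox8 had 1 UMI each. Over the 20 classes, the genes most like Alox8 were Krtap7-1 (0.902), Krt31 (0.887), Calhm4 (0.885), Krt81 (0.884) and Gm11565 (0.878), and Krtap7-1, Krt31 and Krt81 encode proteins of the hair shaft. Those most like Alox12 had lower values, led by Hspa2 (0.705), Fis1 (0.642), Rab11a (0.633), Zfand6 (0.629) and Rab6a (0.626). For Alox12e they were Sprr1a (0.820), Teddm3 (0.818), Cstb (0.798), Defb6 (0.788) and Defb1 (0.774); Sprr1a and Defb6 were also markers of the duct class.

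Alox5 encodes the lipoxygenase of leukotriene synthesis and was a gene of macrophages and dendritic cells in both libraries. Of its 40 skin UMIs, 36 lay in that class (90.0%), as did all 5 of its PG UMIs. The level was 64.4 CPM in skin (45.1 to 89.2) and 9.95 CPM in PG (3.23 to 23.2), a log2 ratio of -2.70 (-4.40 to -1.34). The intervals of the levels did not overlap. Thinned to 1000 UMIs, 5.02% (2.62 to 8.61) of skin and 1.89% (0.516 to 4.76) of PG cells of the class had a UMI, and these intervals overlapped; without thinning the skin share was 12.1%. T cells had 0 UMIs of Alox5 in either tissue. In skin, the cluster of 64 cells led by Cd207, the marker of Langerhans cells, was at 152 CPM, and the cluster of 175 cells led by macrophage genes such as Retnla and Pf4 was at 27.9 CPM. The PG class had 1 cluster, so the makeup of the class and the level per cell type cannot be told apart.

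Partners of Alox5 in the class differed less. Alox5ap, which presents arachidonic acid to the enzyme, was at 563 CPM in PG and 673 CPM in skin (-0.26, -0.48 to -0.03), and Ltc4s, which makes leukotriene C4, at 195 and 202 CPM (-0.05, -0.46 to 0.35). Of the 19 release and oxygenation genes, 9 could be compared, 1 was higher in PG (Ptgs2, 1.27, 0.84 to 1.72) and 3 were lower, a share near the 33.1% of all genes past 2-fold in this class. Hpgds, a prostaglandin D synthase, was among these (55.7 and 347 CPM; -2.64, -3.27 to -2.06). The genes most like Alox5 over the 20 classes were Cd209e (0.988), Cd209a (0.977), Clec4a3 (0.975), Fcrls (0.973) and Clec4a1 (0.969), several of which are lectins of dendritic cells and macrophages. Alox15, the lipoxygenase of resident macrophages and eosinophils, had 1 UMI among all skin cells and 1 among all PG cells, and no class could be described.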

How the data were processed

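Back skin and PG of 3 pooled mice gave 1 single-cell library each. The authors deposited unfiltered UMI counts per gene and barcode, which per the file headers and labels were made with Cell Ranger 4 on mm10. A barcode was kept as a cell if it reached 500 genes and 1000 UMIs with a mitochondrial share no higher than 10%, which left cells of 1000 to 29257 UMIs in skin and 1000 to 15458 in PG. The library totals were 37675226 and 26288071 UMIs.

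Each tissue was clustered on its own with Scanpy 1.11.5 (2000 variable genes, 30 principal components, 15 neighbours, Leiden resolution 1.0), leaving the members and the 42 listed genes out of the variable genes. Clusters of at least 60 cells that had sebocyte markers or no clear class were split once more at resolution 0.5. A cluster took the class with at least 3 raised markers and a lead of 2 over the next class, and sebocyte-like clusters also had to show Pparg or Cidea. A cluster whose leading genes held more markers of another class was left without a class. Since this naming rule was chosen with the clusters in view, class shares may differ from those of the study, whose own skin sebocytes also took in follicle-associated clusters. Doublets were kept, and their removal was an alternative.

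UMIs were summed per class. CPM have exact Poisson intervals, ratios exact conditional binomial intervals and shares Clopper-Pearson intervals, all at 95%. A gene was compared if 1 group had at least 10 UMIs, and it was counted as higher or lower at a log2 ratio of at least 1 in size. Some genes reached 10 UMIs only in the group where they were high, so counts of genes past 2-fold are descriptions. Against a count of 0 the ratio was computed at 3 UMIs per class and is a bound; genes at 0 in 1 group entered medians at that bound. Free RNA was read from barcodes with at most 100 UMIs, and its share of a class was taken as the percentile 5 of the ratio of class to free level over genes with at least 200 CPM in free RNA. The code was tested on simulated counts with known ratios.

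The genes named were the 10 members, 4 fixed lists of which those with the most UMIs are given as examples, and for each member with at least 50 CPM in 1 class the 5 genes most like it. The members, lists and markers were chosen with earlier results of these data known. With 1 library per tissue no p-value was computed.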

Additional observations from a re-analysis of the deposited data

Results flagged for a closer look

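The ratio of upper follicle and duct to basal keratinocytes for Ephx2 had opposite signs in the 2 tissues. It was -1.19 on the log2 scale in PG (-1.67 to -0.73; 21.4 against 48.8 CPM) and 3.35 in skin (2.36 to 4.46; 23.5 against 2.31 CPM). Counting error does not cover the gap, but with 1 library per tissue the difference was not tested against the spread between animals. In PG, free RNA was estimated to give 16.9 CPM of Ephx2 in duct cells and 12.3 CPM in basal cells, against 0.227 and 0.103 CPM in skin, and with it subtracted the PG ratio was -3.04.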

How the results depend on the processing

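Results were split into a picked set, which held chosen gene ratios, and the other values for single genes. In the picked set, 152 values under the alternatives stayed close to the reported value, 30 moved and 0 changed sign. Of the other values, 304 stayed, 68 moved and 6 changed sign. None of the ratios that changed sign was in the picked set, so its 0 depends on that choice. The cause was not tested in any case. Those that changed sign were Alox12e between PG and skin basal keratinocytes (-0.19) and between pSEB and PG basal keratinocytes (0.39) at 5% mitochondrial UMIs, Alox12e in fibroblasts at resolution 2.0 (-0.39), Alox12e in hair matrix over basal cells without likely doublets (-1.03) and with cells classed one by one (-0.16), and Ephx2 in macrophages and dendritic cells with free RNA subtracted (-0.84).

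Ephx2 in pSEB over basal cells was 2.29 with at least 1000 genes and 2000 UMIs, 1.78 at 5% mitochondrial UMIs, 2.34 without doublets, 2.59 at resolution 2.0, 2.51 with cells classed one by one and 3.55 with free RNA subtracted. Alox12e in PG duct over basal cells was 3.71, 6.99, 3.53 and 4.50 under the first 4 of these, 3.19 with another seed and 3.78 with cells classed one by one. Alox12e between PG and skin duct cells was 1.36 with the stricter gene and UMI minimum, 1.39 without doublets and 1.55 with cells classed one by one, where Ephx1 in pSEB over basal cells was -2.39. Alox12b in suprabasal over basal cells was at least 5.12 with the stricter minimum and at least 5.54 with free RNA subtracted. The members past 2-fold were 3 between pSEB and sSEB with the stricter minimum and with cells classed one by one, 1 in macrophages and dendritic cells without doublets and at resolution 2.0, and, at 5% mitochondrial UMIs, 2 in pSEB over basal and 3 in hair matrix over basal cells. Shares of cells with a UMI without thinning were 70.8% for Ephx2 in pSEB and 12.1% for Alox5 in skin macrophages and dendritic cells. For Alox12e they were 76.6% and 43.1% in PG and skin duct cells. Classing cells one by one was a separate alternative, in which the shares were 35.2% for Ephx2 and 55.4% for Alox12e in PG. Those values are not to be set against the shares without thinning. The ratio of pSEB to sSEB for Ephx2 lay between 5.85 and 7.41, but had no value without doublets.

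No paired analysis was possible because each tissue had 1 pooled library, and leaving out a replicate was not possible either. In sSEB, a count of 0 allows up to 15.1 CPM.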

Other observations

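Among the ceramide genes, Elovl4 separated pSEB from the other lipid-producing and barrier cells. It had 0 UMIs among the 3789464 of pSEB, which allows up to 0.792 CPM, and 246 among the 198302 of sSEB (1241 CPM), a log2 ratio of at most -10.61. The same PG library held 435 Elovl4 UMIs in duct cells (172 CPM) and 54 in basal keratinocytes (17.9 CPM). In the other direction, Slc27a4, a fatty acid transport protein gene, was at 229.8 CPM in pSEB and 106 CPM in sSEB (1.12, 0.50 to 1.82), and it was 3.91 higher in pSEB than in PG basal cells (3.48 to 4.37). Cyp2b19 was at 69.7 CPM in pSEB and 15.1 CPM in sSEB, with 3 UMIs in the latter (2.20, 0.64 to 4.49). All of these sSEB values rest on 45 cells. Without likely doublets and the cells with the most UMIs, no skin cluster was sebocyte-like.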
